A study of Mus musculus with 8 samples.

Results

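Loss of the transcription factor Tbx18 was examined in kidney rudiments of E11.5 mouse embryos (strain NMRI), from which cells positive for GFP were sorted. The comparison set 3 pools of cells from Tbx18(GFP/GFP) embryos, in which both copies of the gene carry a GFP allele and which are called null here, against 3 pools from Tbx18(GFP/+) embryos, called control. The members were taken by genotype and replicate number in the labels, and made up 6 of the 8 samples of the series, all on the same 1-colour Agilent array design. Control cells therefore also carried the GFP allele on 1 of their chromosomes, and in both groups GFP expression from the Tbx18 locus decided which cells were sorted. Each pool combined about 100000 cells of both sexes from successive rounds of sorting. Pools of replicate 1 and 2 were labelled from 20 ng of total RNA and those of replicate 3 from 10 ng. All 39429 probes for transcripts on the array entered, and 0 of them were found only on this array design, so no probe had to be treated apart. Of these, 24986 gave signal well above background on 3 arrays or more and were tested.

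Tbx18 belongs to the T-box family of DNA-binding proteins and acts mainly as a repressor of transcription. In the developing urinary tract it marks loose mesenchyme around the stalk of the ureteric bud, which later gives rise to the smooth muscle, fibroblasts and adventitia of the ureter. This mesenchyme lies next to the cap mesenchyme, whose progenitors form nephrons, and next to the stroma of the kidney. In mice without Tbx18 the ureteric mesenchyme is known to lose its tight place around the ureter and the ureter later fails to form a contractile wall.

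All values below are levels or changes on the log2 scale. A level is the log2 signal of a probe minus the 75th percentile of its array, so that 0 is the signal of that percentile. Levels of different probes are not comparable with each other. A change is null minus control, averaged over the 3 pairs of pools of the same replicate number, with the standard error of a limma fit that holds the replicate number as a block. A probe passed the test at a Benjamini-Hochberg adjusted p under 0.05 over all 24986 probes.

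Control and null pools 1 and 2 shared a slide and a scan, and both pools of replicate 3 lay on another slide with a scan of its own. Between 59.3% and 64.3% of probes were well above background on an array, and 0 spots were saturated. The number of arrays limits the precision. Null pool 3 stood apart by its markers of other cell types. The summed signal of 12 erythroid genes was 9.62 to 44.8 times the array's 75th percentile in control pools, and 8.45, 34.9 and 750.4 times in null pools 1, 2 and 3. For 13 endothelial genes the sums were 6.64 to 7.78 in control pools and 9.75, 10.6 and 28.1 in null pools. For 19 genes of the ureteric epithelium they were 3.37 to 5.38 in control pools and 4.19, 9.96 and 23.8 in null pools. In pooled cells, fewer cells of a type and less RNA per cell cannot be told apart.

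**Figure D1:**
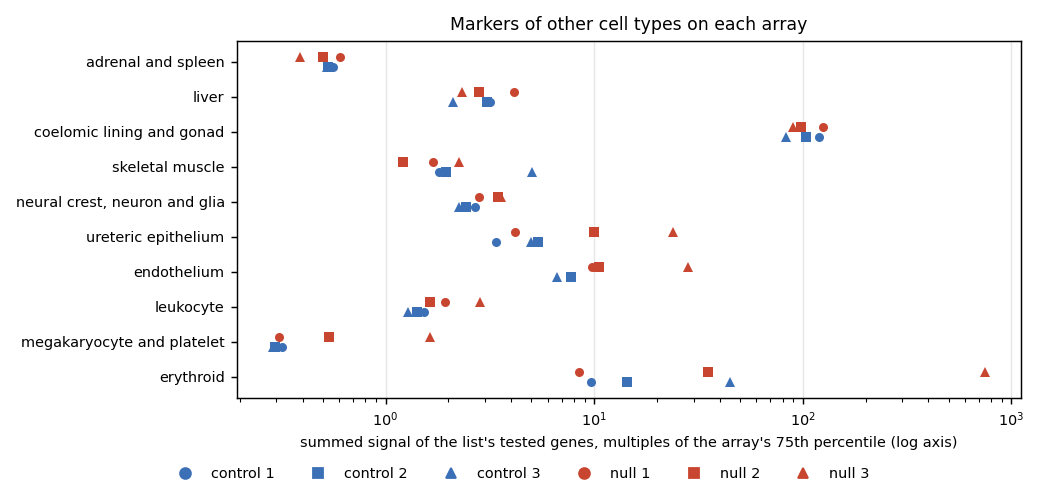
Summed signal of the tested genes of 10 marker lists on each array, in multiples of the array's 75th percentile on a log axis; blue marks control and red marks null, and circles, squares and triangles mark replicates 1, 2 and 3. Null pool 3 was the highest of the 6 for erythroid, endothelial and ureteric epithelial genes, with 750.4, 28.1 and 23.8.

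Tbx18 itself was measured by a single probe (mm9, chr9:87599514-87599573, minus strand), which begins at base 2740 of its transcript. Its level was -0.02, 1.20 and 1.04 in control pools 1, 2 and 3, and -2.40, -1.34 and -2.35 in null pools. The null pools all lay below the control pools, and the change was -2.77 ± 0.23 (SE; adjusted p = 0.031), a 6.82-fold lower signal. The probe was still well above background in all 3 null pools. Which bases of Tbx18 the GFP allele replaces is not given in the labels, so the probe checks the genotype only in part. Without the replicate block the same change had an adjusted p of 0.138.

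In the paired fit, 225 probes (0.901% of those tested) changed, 109 of them higher and 116 lower in null pools. The median size of these changes was 1.68, and 209 of the 225 were at least 2-fold in each of the 3 pairs. In 200 of them the null and control pools did not overlap, against 7.48% of all probes tested. Calling by the same values favours such probes, so this share is no separate support for the calls. Of the 109 higher probes, 9 were too dim in every control pool to count as detected, as were 8 of the 116 lower in every null pool. Those of Egln3, Cdkn2b, Sp5, Grhl1, Lhx3 and Cyp26a1 are among the 9. Such probes met the filter through their brighter group alone, so the filter selected them partly by the difference tested. Their adjusted p-values are to be read with that limit. With the highest probe of each gene taken, 181 of 19198 genes (0.943%) passed, 94 higher (0.49%) and 87 lower (0.453%). The calls rest on the pairing, because without the replicate block 0 probes passed in limma (1110 at an unadjusted p under 0.05). They also depend on single pairs, since leaving out pair 1, 2 or 3 gave 20, 0 and 732 calls (2769, 1989 and 3990 at an unadjusted p under 0.05). Differences in pair 3 were the most spread of the 3, with an SD of 0.779 over probes against 0.407 in pair 1 and 0.44 in pair 2. Over all genes, 13.4% had an unadjusted p under 0.05 in the paired fit, 7.1% higher and 6.34% lower, and list counts at that level are to be read against these shares.

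**Figure D2:**
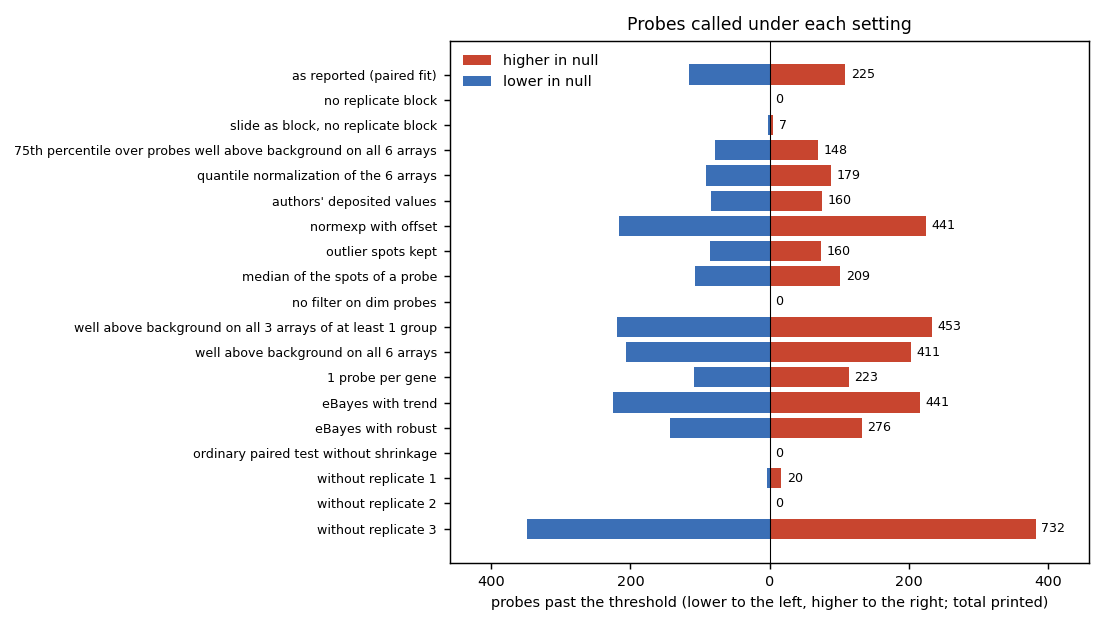
Number of probes past the threshold in the paired fit and under each alternative, with probes lower in null to the left and higher in null to the right of 0. The paired fit gave 225, the fit without the replicate block 0, and the fit without replicate 3 gave 732.

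Genes whose products build or organise the extracellular matrix were among the largest falls. Fbln5, which encodes fibulin 5, an organiser of elastic fibres, showed the largest fall when each gene is taken by its brightest probe (mm9, chr12:102988153-102988212, minus strand). Its level was 0.31, 0.18 and 1.09 in control pools and -3.34, -3.73 and -2.31 in null pools. No null pool came within 2-fold of a control pool, and the change was -3.66 ± 0.15 (SE; adjusted p = 0.0129), 12.6-fold. Lum, the gene of the keratan sulphate proteoglycan lumican, read 0.34, -0.09 and 0.96 in control and -2.98, -2.98 and -1.08 in null pools. Null pool 3 was the least low of the 3, and the change of Lum was -2.75 ± 0.27 (SE; adjusted p = 0.0375). Postn, the gene of the matricellular protein periostin, read -2.13, -0.80 and 0.55 in control and -4.81, -3.30 and -2.43 in null pools. Control pools differed widely for Postn, yet each null pool lay below its own partner, by 2.68, 2.50 and 2.97. Col25a1, which encodes a transmembrane collagen, read 0.37, -0.59 and -0.07 in control and -2.08, -3.48 and -3.40 in null pools. All 4 of its tested probes fell, with changes from -2.89 to -1.93.

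Dcn, which encodes the small proteoglycan decorin, changed by -1.5 ± 0.13 (SE; adjusted p = 0.031), with 2.84, 1.95 and 2.58 in control and 1.18, 0.59 and 1.09 in null pools. Lox, the gene of an enzyme that cross-links collagen and elastin, changed by -1.19 ± 0.13 (SE; adjusted p = 0.0427), though its pools overlapped and its other probe did not pass (-1.74, adjusted p = 0.126). Of 34 tested genes of collagens, proteoglycans and elastic fibres, these 6 fell and 0 rose (22 and 2 at an unadjusted p under 0.05 in limma). The list leaves out 2 collagen genes that passed, Col8a1, which rose by 3.75, and Col24a1, which fell by 1.37. Estimates were lower in null for 31 of the 34, and the median change was -0.63, with -0.50, -0.64 and -0.99 in pairs 1, 2 and 3. Over all genes tested the median was 0.01, and estimates were higher for 51.2%. Fibrillar collagen Col3a1, at 6.05, 5.99 and 5.75 in control and 5.30, 5.09 and 4.76 in null pools, had a change of -0.88 ± 0.13 that did not pass (SE; adjusted p = 0.0685). Mfap5, a microfibril gene, and Col12a1, a fibril-associated collagen, missed the threshold at -1.35 and -1.0 (adjusted p = 0.0569 and 0.0678). Leaving out pair 1, 2 or 3 gave 1, 0 and 10 calls lower in this list.

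A promoter window of 300 bases, from 250 before to 50 after the gene start, was searched for GGTGTGA, the core letters that T-box proteins bind, on both strands. Windows were those of RefSeq on GRCm38.p6. The letters stood in a window of 3 of 60 genes that fell (5.0%), 1 of 56 that rose (1.79%), and 525 of 12163 genes tested (4.32%). Such a match describes letters and not binding. Fbln5 was the only match among the 11 largest falls with a window, and none of the 12 largest rises with a window had one. The 4 windows of changed genes with a match are shown so that the letters can be seen in place. The capitals mark GGTGTGA or, for Ebf1, its reverse complement TCACACC, and each window reads along the strand of its gene. The match lies 112 bases before the start in Fbln5, 78 before in Ebf1, 15 before in Lmo3 and 14 after in Cdkn1a.
Fbln5 (lower; GRCm38.p6, chr12:101819070-101819369, minus strand): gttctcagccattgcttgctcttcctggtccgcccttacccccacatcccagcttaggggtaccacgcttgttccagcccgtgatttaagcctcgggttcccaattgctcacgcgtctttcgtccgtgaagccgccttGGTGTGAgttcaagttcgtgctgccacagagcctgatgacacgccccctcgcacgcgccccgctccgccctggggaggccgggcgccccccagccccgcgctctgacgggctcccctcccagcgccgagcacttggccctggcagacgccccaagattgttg
Ebf1 (lower; GRCm38.p6, chr11:44619978-44620277, plus strand): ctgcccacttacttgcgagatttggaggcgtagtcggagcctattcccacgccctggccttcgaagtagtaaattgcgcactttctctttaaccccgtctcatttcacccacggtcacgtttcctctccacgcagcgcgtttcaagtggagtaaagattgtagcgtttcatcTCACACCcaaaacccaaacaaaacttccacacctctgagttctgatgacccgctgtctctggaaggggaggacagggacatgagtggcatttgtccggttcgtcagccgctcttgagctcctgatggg
Lmo3 (lower; GRCm38.p6, chr6:138581919-138582218, minus strand): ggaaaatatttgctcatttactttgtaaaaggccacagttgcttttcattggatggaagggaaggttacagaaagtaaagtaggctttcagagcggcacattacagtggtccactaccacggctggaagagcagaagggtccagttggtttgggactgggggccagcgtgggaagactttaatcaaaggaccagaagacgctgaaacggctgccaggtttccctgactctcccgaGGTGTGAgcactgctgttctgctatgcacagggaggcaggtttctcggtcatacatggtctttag
Cdkn1a (higher; GRCm38.p6, chr17:29093519-29093818, plus strand): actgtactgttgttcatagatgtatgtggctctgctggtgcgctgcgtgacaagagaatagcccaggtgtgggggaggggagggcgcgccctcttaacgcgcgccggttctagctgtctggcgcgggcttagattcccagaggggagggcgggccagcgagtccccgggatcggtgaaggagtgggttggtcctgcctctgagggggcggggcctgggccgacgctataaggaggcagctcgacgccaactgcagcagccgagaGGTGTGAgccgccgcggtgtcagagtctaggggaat

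Ebf1, a transcription factor gene of the EBF family, and Lmo3, which encodes a LIM-only cofactor, were named after their values were seen, for the match in their windows. Ebf1 changed by -1.29 ± 0.13 and Lmo3 by -1.24 ± 0.12 (SE; adjusted p = 0.0427 and 0.0375).

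Other large falls belonged to signalling, adhesion and metabolic genes. Sphk1, which encodes a kinase that makes sphingosine-1-phosphate, a lipid signal of cell migration and muscle, came next to Fbln5 (mm9, chr11:116397908-116397967, plus strand). It read 0.25, 0.36 and 1.62 in control and -3.01, -3.22 and -2.44 in null pools. Both Sphk1 probes fell, with changes of -3.64 ± 0.19 and -3.74 ± 0.16 (SE; adjusted p = 0.0164 and 0.0129). Of 12 tested genes of that lipid's synthesis, breakdown and receptors Sphk1 alone passed. The receptor gene S1pr3 stood at 1.98, 2.11 and 2.15 in control and 0.94, 0.76 and 0.45 in null pools, just short of the threshold (-1.36 ± 0.17, SE; adjusted p = 0.0527).

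Car3, a carbonic anhydrase gene, read 3.14, 2.62 and 2.80 in control and 1.04, 0.13 and -0.50 in null pools, and changed by -2.63 ± 0.26 (SE; adjusted p = 0.0375). Vcam1, a cell adhesion molecule gene of the immunoglobulin family, read -0.60, 0.15 and 0.72 in control and -3.32, -2.11 and -1.43 in null pools. Both of its probes fell, with changes of -2.37 and -1.76. Hopx, the gene of an atypical homeodomain protein that does not bind DNA, read -1.03, -1.25 and -0.13 in control and -3.24, -3.35 and -3.48 in null pools. The 3 null pools of Hopx were close to each other, and both of its probes fell, with changes of -2.55 and -2.17. Cldn1, a tight junction gene, changed by -2.64 ± 0.12 (SE; adjusted p = 0.016), from -3.40, -2.56 and -3.03 to -6.11, -5.08 and -5.70. Synpo, which encodes an actin-binding protein, changed by -2.83 ± 0.12 on its brighter probe (SE; adjusted p = 0.0129) and by -0.25 on its other probe (adjusted p = 0.528), so the probes of Synpo disagree.

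The rest of the 16 largest falls were Sntg1, Calhm5, Kctd8, Bfsp2 and Dkk2. Sntg1, a syntrophin gene, and Calhm5, of a family of membrane channels, had changes of -2.71 and -2.59 and were detected on 1 null array each. Kctd8, an auxiliary subunit gene of the GABA-B receptor, fell by 2.33. Bfsp2, which encodes a filament protein known from the lens, fell by 2.18. The last of them, Dkk2, is described with the WNT genes.

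**Figure D3:**
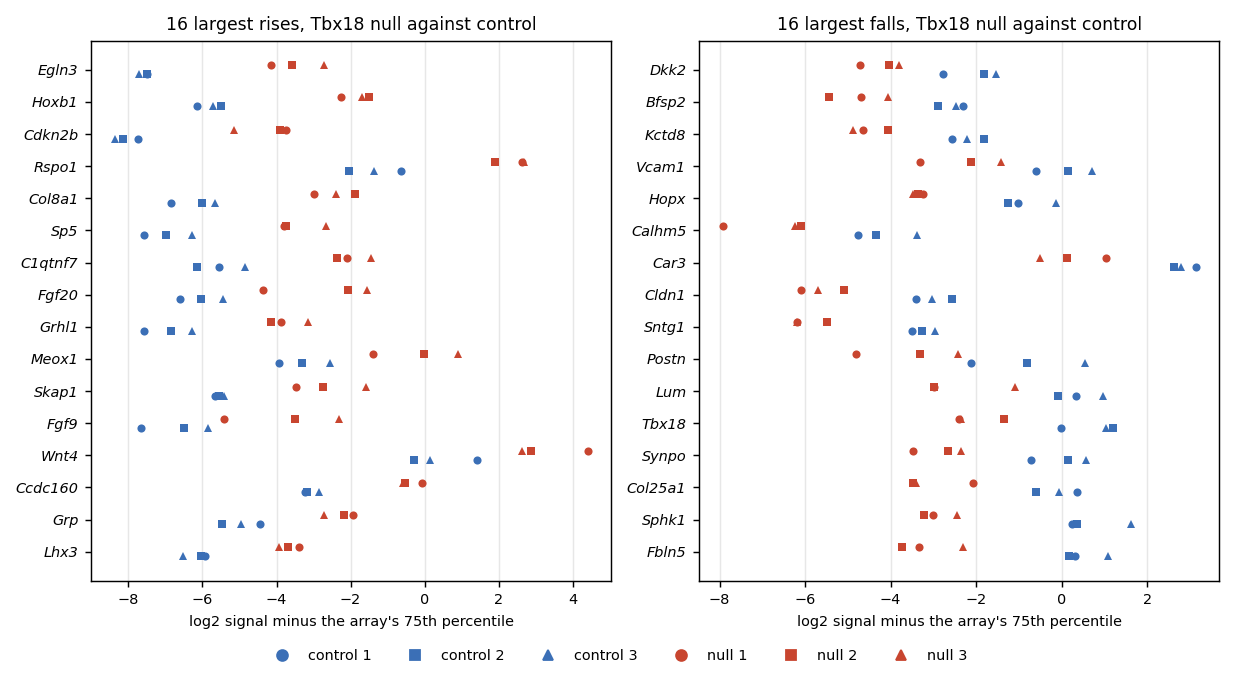
Level of the 16 genes with the largest rises (left) and the 16 with the largest falls (right) on each array, as log2 signal minus the array's 75th percentile; blue marks control and red null, and the symbols mark replicates 1, 2 and 3. Genes were chosen so that the 3 null pools lie on 1 side of the 3 control pools. The change is 3.97 for Hoxb1 and -3.66 for Fbln5. Control values of Egln3, Cdkn2b, Sp5, Grhl1 and Lhx3 are not well above background on any array. Those of Col8a1, C1qtnf7, Fgf20 and Fgf9 are well above background on 1 array each.

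Nephron progenitor genes formed the list with the highest median, 1.49, among the pathway and tissue lists. Marker lists of other cell types had medians of 2.14 for erythroid, 1.41 for ureteric epithelial and 1.29 for endothelial genes. The other marker lists had medians from -0.08 to 0.83. Of the 24 tested nephron progenitor genes, 5 rose and 0 fell (16 and 0 at an unadjusted p under 0.05 in limma), and estimates were higher in null for 22. List medians were 0.67, 1.54 and 1.64 in pairs 1, 2 and 3. Rspo1, the gene of an R-spondin that enhances WNT signalling from outside the cell, was the largest (mm9, chr4:124686270-124686329, plus strand). It read -0.64, -2.05 and -1.37 in control and 2.63, 1.89 and 2.69 in null pools, a change of 3.76 ± 0.20 (SE; adjusted p = 0.0164) or 13.5-fold. Each null pool thus lay above the 75th percentile of its array and each control pool below it. Meox1, a homeobox gene, read -3.92, -3.31 and -2.57 in control and -1.40, -0.03 and 0.91 in null pools, and rose by 3.09 ± 0.22 (SE; adjusted p = 0.0253).

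Wt1, the zinc finger gene without which kidneys do not form, read 2.29, 1.48 and 1.82 in control and 3.59, 3.28 and 3.69 in null pools. Its rise was 1.66 ± 0.16 (SE; adjusted p = 0.0388), and the groups did not overlap. Fgf9 and Fgf20, ligands that keep nephron progenitors alive, were dim in control pools, where each was detected above background on a lone array. In null pools Fgf9 read -5.41, -3.50 and -2.32 and Fgf20 -4.36, -2.07 and -1.56. Fgf9 was well above background on only 2 of the null arrays, so part of its difference lies near the floor. Fgf9 rose by 2.92 ± 0.26 and Fgf20 by 3.37 ± 0.38 (SE; adjusted p = 0.0326 and 0.0446), and the other Fgf20 probe did not pass (3.51, adjusted p = 0.0964). The progenitor transcription factor genes Six2 and Cited1 did not pass. Six2 read 0.45, 0.14 and 0.63 in control and 1.59, 3.29 and 3.90 in null pools (2.52 ± 0.46, SE; adjusted p = 0.104). Cited1 had differences of 0.47, 1.95 and 2.38 in pairs 1, 2 and 3 (adjusted p = 0.184). For Eya1, a transcriptional cofactor gene of the same cells, the estimate was -0.01 ± 0.14 (SE), between 4.32 and 4.97 in control and between 4.23 and 5.19 in null pools. Summed markers of ureteric epithelium were also higher in null, with null over control ratios of 1.24, 1.85 and 4.76 in the pairs. Their part in the list was not tested. Without pair 3, 10 members of the list were called higher, without pair 1, 6, and without pair 2, 0.

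Among 12 genes of early nephrons, Wnt4 and Wt1 rose and 0 fell, and the median change was 0.66. Wnt4 encodes the signal that turns mesenchyme into nephron epithelium (mm9, chr4:136855342-136855401, plus strand). It read 1.42, -0.29 and 0.14 in control and 4.41, 2.88 and 2.64 in null pools, and rose by 2.89 ± 0.17 (SE; adjusted p = 0.0202), or 7.39-fold. Pools of replicate 1 were the highest of each group, and the other Wnt4 probe rose by 3.06. The transcription factor gene Pax8 had an estimate of 3.16 ± 0.51 (SE) that missed the threshold (adjusted p = 0.0823), with differences of 1.63, 3.88 and 3.97 in the pairs.

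Genes of the Hoxb cluster stood higher together. All 9 tested Hoxb genes had higher estimates in each of the 3 pairs, and 5 passed, namely Hoxb1, Hoxb2, Hoxb4, Hoxb5 and Hoxb6. Hox genes encode homeodomain proteins that give cells their position along the body axis, and low numbers lie at the anterior end. Hoxb1 (mm9, chr11:96228450-96228510, plus strand) read -6.16, -5.49 and -5.73 in control and -2.27, -1.5 and -1.69 in null pools. With 3.97 ± 0.12 (SE; adjusted p = 0.0129) or 15.7-fold it had the largest rise in the cluster, and it was well above background on 2 control arrays. Hoxb2 read 0.29, 0.50 and 0.42 in control and 1.86, 2.70 and 2.54 in null pools, and rose by 1.96 ± 0.17 (SE; adjusted p = 0.031). Hoxb4, Hoxb5 and Hoxb6 rose by 1.21, 1.13 and 1.02, each with an SE of 0.12 (adjusted p = 0.0406, 0.0427 and 0.0499). Hoxb8 had an estimate as large as that of Hoxb2, 1.97 ± 0.31 (SE), with differences of 1.25, 1.89 and 2.78, and did not pass (adjusted p = 0.0797). Hoxb3, Hoxb7 and Hoxb9 had estimates of 0.65, 0.69 and 1.0.

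**Figure D4:**
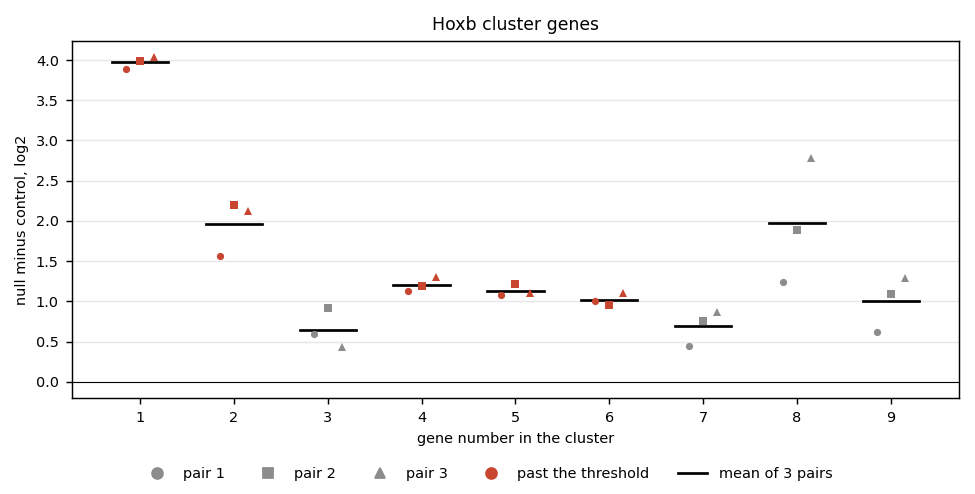
Null minus control, in log2, of the 9 tested Hoxb genes in pairs 1, 2 and 3 (circles, squares and triangles), with the mean of the pairs as a bar and genes past the threshold in red. All 9 lie above 0 in each pair, with means from 0.65 for Hoxb3 to 3.97 for Hoxb1, and 5 pass.

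The other Hox clusters showed no call. Of 11 tested Hoxa, 7 Hoxc and 9 Hoxd genes 0 passed in limma (2, 0 and 2 at an unadjusted p under 0.05, against 9 Hoxb genes), with medians of -0.27, 0.07 and 0.18 against 1.13 for Hoxb. Whether Hoxb differs from the other clusters was not tested. With pair 3 left out 6 Hox genes passed, with pair 1 left out 1, and with pair 2 left out 0.

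Genes of the WNT pathway changed both ways. Of 36 tested, Sp5, Rspo1, Wnt4, Rnf43 and Znrf3 rose, and Dkk2 and Sfrp2 fell, with a median of -0.09. Sp5, a direct target of WNT signalling through beta-catenin, was not well above background on any control array, and read -3.81, -3.74 and -2.65 in null pools. It was at least 5.98-fold higher in null (adjusted p = 0.0129), a bound against the dimmest signal well above background. Rnf43 and Znrf3 encode ubiquitin ligases that remove WNT receptors and are themselves known WNT targets. They rose by 1.60 ± 0.14 and 1.06 ± 0.12 (SE; adjusted p = 0.031 and 0.0474), and for Rnf43 the control range of -6.47 to -4.30 overlapped the null range of -4.99 to -2.46. Znrf3 was above background on 1 control array. Axin2, another known target, differed between pairs, by 1.15, 0.30 and -0.49, and did not pass.

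Of the secreted WNT inhibitors Sfrp2 and Dkk2 fell. Sfrp2, which encodes a secreted protein that binds WNT ligands, read 3.64, 4.5 and 4.10 in control and 1.96, 2.43 and 2.23 in null pools. It fell by 1.88 ± 0.14 (SE; adjusted p = 0.0268), and the groups were well apart. Dkk2, a modulator of the LRP co-receptors, read -2.78, -1.81 and -1.53 in control and -4.71, -4.03 and -3.81 in null pools, and fell by 2.14 ± 0.14 (SE; adjusted p = 0.0238). Wif1, Sfrp1 and Dkk1, inhibitors too, had estimates of -1.5, -0.80 and -0.82 that did not pass (adjusted p = 0.0608, 0.0719 and 0.131). Leaving out pair 1, 2 or 3 gave 2, 0 and 6 calls higher in the WNT list, and 0, 0 and 5 lower.

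FGF and RET signalling genes showed 4 rises and 0 falls among 24 tested, with a median of 0.53. Beside Fgf9 and Fgf20, Etv4, a transcription factor induced by both FGF and RET signals, read 0.91, 0.10 and -0.03 in control and 3.02, 2.46 and 2.95 in null pools. Both Etv4 probes rose, by 2.48 and 2.80. Gfra2, a co-receptor gene for the ligand neurturin, rose by 1.47 ± 0.12 (SE; adjusted p = 0.0306), with near equal differences of 1.5, 1.44 and 1.47. The ligand gene Gdnf, which draws the ureteric bud into the kidney, had an estimate of 0.86 ± 0.13 (SE; adjusted p = 0.0781). Ret, its receptor gene and a marker of the ureteric bud tip, differed by 0.73, 1.89 and 4.66 in the pairs and did not pass. Fgf7, whose product acts on epithelium, had an estimate of -1.49 ± 0.24 (SE; adjusted p = 0.0832). Leaving out pair 1, 2 or 3 gave 1, 0 and 8 calls higher in this list.

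Among 16 retinoic acid genes, 2 rose and 0 fell. Rdh10, which encodes the dehydrogenase of the first step of retinoic acid synthesis, read 1.43, 1.60 and 1.21 in control and 2.85, 3.14 and 2.58 in null pools, a rise of 1.45 ± 0.12 (SE; adjusted p = 0.031). Cyp26a1, whose product breaks retinoic acid down, was not well above background on any control array, and in null pools it was higher by at least 2.32-fold (adjusted p = 0.0238). Aldh1a2, the gene of the enzyme that makes the acid in this mesenchyme, stood at 5.95 to 6.64 in control and 6.18 to 6.73 in null pools (0.08 ± 0.13, SE).

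Among hypoxia and glycolysis genes 1 rose, Egln3, which encodes a prolyl hydroxylase that marks hypoxia-inducible factors for breakdown and is itself induced by low oxygen. Egln3 was well above background on no control array and on all 3 null arrays, where it read -4.15, -3.59 and -2.73. This amounts to at least 5.62-fold (adjusted p = 0.0306), and to at least 4.59-fold on its other probe. Of the other 19 tested genes of hypoxia and glycolysis 0 passed in limma, and 8 of the 20 in all had an unadjusted p under 0.05, each of them higher. The list's median was 0.30, with 0.24, 0.24 and 0.28 in the pairs, and 15 of 20 estimates were higher. The glucose transporter gene Slc2a1 and Vegfa, both known targets of hypoxia-inducible factors, had estimates of 0.40 ± 0.12 and 0.19 ± 0.12 (SE).

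Of 14 genes of cell cycle inhibitors and p53 targets 2 rose, and proliferation genes gave no call. In limma 2 of the 14 had an unadjusted p under 0.05, near the share of 13.4% over all genes. Cdkn2b, which encodes an inhibitor of the kinases CDK4 and CDK6, was below the background limit on all control arrays and read -3.76, -3.91 and -5.15 in null pools, at least 3.27-fold higher (adjusted p = 0.0202). Cdkn1a, an inhibitor gene under p53, rose from -5.96, -4.18 and -4.68 to -4.12, -2.32 and -1.91, or by 2.16 ± 0.23 (SE; adjusted p = 0.0427). The other 12 tested genes of this list, which are further inhibitors and p53 targets, gave 0 calls. Mdm2, a p53 target, had an estimate of 0.04 ± 0.12 (SE). Of 20 proliferation genes 0 passed in limma (1 at an unadjusted p under 0.05), the median was -0.05, and Mki67 had an estimate of -0.02 ± 0.15 (SE).

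Regulators of the ureteric mesenchyme itself showed 2 falls among 21 tested genes, those of Tbx18 and Sox9. The list was measured in full, and its median change was 0.08. Sox9, a transcription factor gene needed for smooth muscle differentiation in the ureter and for cartilage, read -1.75, 0.49 and 1.47 in control and -3.59, -1.09 and -0.46 in null pools. Control pools spanned more than the change, so the groups overlapped, yet the differences in the pairs were -1.84, -1.58 and -1.92, and the change was -1.78 ± 0.13 (SE; adjusted p = 0.028). Without the block Sox9 did not pass (adjusted p = 1.0). Bmp4, a ligand of this tissue, had an estimate of -0.82 ± 0.16 (SE; adjusted p = 0.122), Tshz3 of -0.77 and the T-box genes Tbx2 and Tbx3 of -0.26 and 0.42. Gli1, a Hedgehog target, stood at 2.0 to 2.56 in control and 1.29 to 2.39 in null pools and did not pass. In the list of 9 tested T-box genes Tbx18 alone was called.

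Cartilage genes all had lower estimates, 12 of 12, with a median of -0.33, and 2 passed, Sox9 and Otor. Otor, a secreted protein gene known from cartilage of the inner ear, read 0.75, 0.95 and 1.42 in control and -0.99, -0.95 and -0.94 in null pools, a change of -2.0 ± 0.17 (SE; adjusted p = 0.031). Smooth muscle genes, of which 11 were tested, gave 0 calls in limma (1 higher and 4 lower at an unadjusted p under 0.05), and Acta2 had an estimate of 0.20 ± 0.17 (SE). Of 19 renal stroma genes Postn, Dcn and Lox fell and Smoc2, a matricellular protein gene, rose by 1.42 ± 0.15 (SE; adjusted p = 0.0425). The median of that list was -0.48, and 15 of its estimates were lower. At an unadjusted p under 0.05 in limma, 12 were lower and 2 higher. Foxd1, the transcription factor gene that defines the stroma, had an estimate of -0.11 ± 0.15 (SE), and Cxcl12, a chemokine gene, one of -0.98 ± 0.12 (SE; adjusted p = 0.0526).

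BMP and TGF-beta genes gave 1 rise and 1 fall among 28. Bmp5, a ligand gene, read -1.70, -1.16 and -1.51 in control and -3.23, -2.86 and -3.02 in null pools and fell by 1.58 ± 0.12 (SE; adjusted p = 0.0299). Gdf6, another ligand gene, rose by 1.02 ± 0.12 (SE; adjusted p = 0.0499), with overlapping groups and signal above background on 2 arrays of each. Ptn, which encodes the heparin-binding growth factor pleiotrophin, stood far above the 75th percentile of every array, at 4.53, 4.73 and 4.53 in control and 2.59, 2.86 and 2.95 in null pools. Both Ptn probes fell, with changes of -1.79 and -1.76. The related factor gene Mdk stayed between 6.73 and 7.44 in both groups (0.14 ± 0.12, SE), and none of the other tested receptors of the list passed.

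Of 28 guidance and adhesion genes, 0 rose and 2 fell. Epha7, an ephrin receptor gene, fell on all 3 of its probes, with changes of -1.24, -1.29 and -1.43. Cdh9, a cadherin gene, read -0.75, -0.95 and -0.24 in control and -2.31, -2.31 and -2.37 in null pools (-1.68 ± 0.19, SE; adjusted p = 0.0446). Among 8 LIM homeobox genes, Lhx3, known from motor neurons and the pituitary, was at least 4.84-fold higher in null pools (adjusted p = 0.0164) and above background on none of the control arrays. Lhx9, known from the gonad and the coelomic lining, fell by 1.5 ± 0.18 (SE; adjusted p = 0.0499), and its other probe did not pass (-1.56, adjusted p = 0.141). Of 13 Hedgehog and 15 Notch genes 0 passed in limma (4 and 7 at an unadjusted p under 0.05), and Hey2, a Notch target, came nearest with -1.30 ± 0.16 (SE; adjusted p = 0.055).

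**Figure D5:**
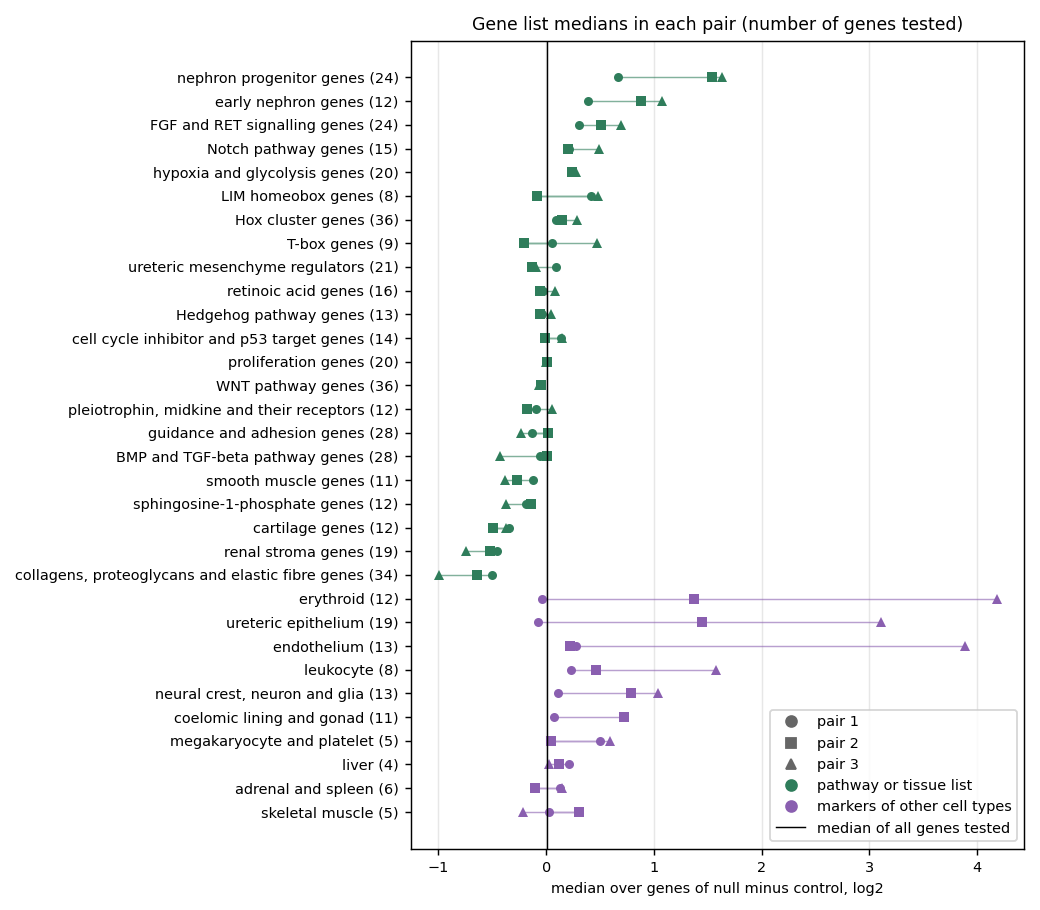
Median over the tested genes of each list of null minus control, in log2, in pairs 1, 2 and 3 (circles, squares and triangles); green marks pathway and tissue lists, purple marks markers of other cell types, and the vertical line is the median of all genes tested. Nephron progenitor genes lie at 0.67, 1.54 and 1.64 and matrix genes at -0.50, -0.64 and -0.99, while erythroid genes run from -0.04 in pair 1 to 4.18 in pair 3.

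Remaining genes among the 16 largest rises were Col8a1, C1qtnf7, Grhl1, Skap1, Ccdc160 and Grp. Col8a1, a short-chain collagen gene of basement membranes and vessel walls, read -6.85, -6.01 and -5.66 in control and -2.98, -1.88 and -2.40 in null pools. It rose by 3.75 ± 0.20 (SE; adjusted p = 0.0164), and it was above background on 1 control array. C1qtnf7, of the C1q and tumour necrosis factor related family, rose by 3.55 ± 0.14 on its brighter probe (SE; adjusted p = 0.0129) and by a smaller estimate of 1.27 on the other (adjusted p = 0.0823). Its brighter probe was above background on 1 control array. Grhl1, a transcription factor gene of epithelia, was above background on none of the control arrays and stood at least 4.74-fold higher in null pools (adjusted p = 0.0244). Skap1, an adaptor gene of T cell receptor signalling, rose by 2.94 ± 0.33 (SE), with differences that ranged from 2.18 in pair 1 to 3.83 in pair 3. Ccdc160 read -3.22, -3.17 and -2.86 in control and -0.08, -0.52 and -0.59 in null pools. Grp, which encodes gastrin-releasing peptide, read -4.44, -5.47 and -4.95 in control and -1.94, -2.17 and -2.70 in null pools.

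Markers of other cell types gave few calls, though many had higher estimates in null pools. In lists of erythroid, megakaryocyte, leukocyte, endothelial, ureteric epithelial, neural, skeletal muscle, liver, and adrenal and spleen genes 0 of 85 tested members passed in limma (27 higher and 3 lower at an unadjusted p under 0.05, against 7.1% and 6.34% of all genes). A further 3 of 15 erythroid, 2 of 15 endothelial and 3 of 22 epithelial genes were too dim to be tested. Their medians differed between pairs, with -0.04, 1.37 and 4.18 for erythroid, 0.28, 0.22 and 3.89 for endothelial and -0.08, 1.45 and 3.11 for epithelial genes. With pair 3 left out, 3 erythroid, 1 endothelial and 2 epithelial genes were called higher and 0 lower. With pair 1 or pair 2 left out, 0 genes of these lists were called. Markers of the coelomic lining and gonad included Wt1 and Lhx9, which changed in opposite directions. The defining markers were not absent from the control pools. The globin gene Hba-a1 read 0.82, 1.44 and 3.39 in control and 0.66, 2.72 and 7.33 in null pools, and the endothelial gene Pecam1 -3.16, -2.90 and -3.70 in control and -2.88, -3.31 and -1.36 in null pools. In pair 1, summed erythroid, endothelial and epithelial markers had null over control ratios of 0.878, 1.26 and 1.24. Such sums follow the brightest probes. Single markers differed both ways there, such as Cldn5 by 1.71, Alas2 by 1.44 and Krt18 by 1.17, and Hbb-bh1 by -0.51 and Wnt9b by -0.35. Fbln5, Sphk1, Hoxb1, Rspo1 and Wnt4 differed there by -3.66, -3.26, 3.89, 3.27 and 2.99. Fgf20, Fgf9 and Pax8 differed there by 2.26, 2.25 and 1.63, less than in pairs 2 and 3. These genes were picked after their values were seen. The part of other cell types in the changes was not tested.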

How the data were processed

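RNA of 6 pools was hybridised to 1-colour arrays. The scanner files hold spot intensity that Agilent Feature Extraction 10.7.3.1 (per the submitters' processing notes) had corrected for background, with flags for outlier, saturated and well-above-background spots, per the file headers. Genotype, replicate number and input are those of the labels. The authors' deposited table of values is linear intensity, with the same median (93.774) and 75th percentile (1500) on each array and a floor of 10. Its scale was read from its values, and it served as an alternative.

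Outlier spots (1.86% to 2.19%) were left out and the remaining spots of a probe, at most 4, averaged. The log2 of the deposited intensity minus the array's 75th percentile is the level. A probe counts as well above background if most of its spots were, and was tested if so on at least 3 arrays. Probes were named by accession (27597), symbol (3488) or synonym (393) through RefSeq tables of GRCm38.p6, 5112 kept the file's name and 2839 had none. Coordinates of probes are those of the files (mm9).

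Tests used limma 3.58.1 (lmFit and eBayes, R 4.3.3), two-sided, with the replicate number as a block, which leaves 2 residual degrees of freedom beside 2.88 prior ones. A gene is given by its probe of highest mean level. An "at least" fold divides the mean of the brighter group by a floor for the dim group, the mean over its arrays of the dimmest signal well above background, or of the probe's signal where that was larger. Deviations from the group means correlated over probes at 0.836, 0.74 and 0.452 for pools of the same number and at -0.745 to 0.244 for others. Deviations cancel within a group, so high values for the same number push the others down. Pools of replicate 3 also shared a slide, scan and input of their own, which cannot be told apart from pairing. The labels do not say that pools of the same number were matched. The labels describe separate pools, not litters, so p-values measure the spread of differences between these pools.

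On simulated data for this comparison (24986 probes), 2, 43, 49 and 48 of 50 probes changed 2, 4, 8 and 16-fold were called with the block, with 7 unchanged ones, and 0, 10, 34 and 45 without it, with 2 unchanged ones. The simulated data were given the pair effects fitted to these arrays. The contrast with and without the block is therefore no support for using the block.

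Text names Tbx18, the 16 largest rises and falls among called probes with no overlap of groups and a gene symbol, members of each list that were called or among its 4 of smallest p, and defining markers. Other genes are named for contrast and were chosen after their values were seen. The comparison, members and lists were chosen with earlier results of these data known. Alternatives of block, slide, scaling, background, spots, filter, moderation and replicates were run.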

Additional observations from a re-analysis of the deposited data

How the results depend on the processing

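The 225 probes called (109 higher, 116 lower) depended on the fit. Without the replicate block 0 probes passed in limma (0 higher, 0 lower; 1110 at an unadjusted p under 0.05), with the slide as a block instead 7 (5 and 2), with no filter on dim probes 0 (0 and 0; 4057 unadjusted) and with an ordinary paired test without shrinkage 0 (0 and 0; 2437 unadjusted). Scaling over probes detected on all arrays gave 148 (70 higher), normexp 441 (225 and 216), a filter on all 3 arrays of at least 1 group 453 (234 and 219), a filter on all 6 arrays 411 (204 and 207) and a moderation trend 441 (216 and 225). Leaving out replicate 1, 2 or 3 gave 20, 0 and 732 probes (17, 0 and 383 higher; 3, 0 and 349 lower), of which 11, 0 and 225 were among the 225. Other alternatives, quantile scaling, the authors' values, outlier spots kept, spot medians, 1 probe per gene and robust moderation, gave 160 to 276. The Tbx18 change stayed at -2.77 without the block, with the slide block, without the filter and in the ordinary test, with adjusted p of 0.138, 0.243, 0.0899 and 0.404, and was -2.96, -2.88 and -2.46 without replicates 1, 2 and 3 (adjusted p = 0.0832, 0.269 and 0.0042). In the ordinary paired test, without the filter, without the block and without replicate 2, in which 0 probes passed, the 56 called genes among the 158 named lost their call. Of these 56, 15 lost their call with the authors' values, 12 with scaling over probes detected on all arrays, 9 with quantile scaling, 10 with outlier spots kept and 8 with normexp, which added 17. Why calls changed was not tested. The fits that leave out a replicate also have fewer arrays. With 2 residual degrees of freedom, changes near 2-fold are mostly missed, as 2 of 50 such probes were called in simulated data. Those data had the same spread in each pair, unlike the real pairs.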

Other observations

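Beyond the lists, the changed genes held further groups, named here after their values were seen. Some transcription factor genes of mesenchyme fell and others rose. Twist1, a basic helix-loop-helix gene, read 0.18, 2.88 and 2.23 in control and -1.84, 0.92 and 0.18 in null pools, so the groups overlapped although each pair differed by about the same amount (-2.01 ± 0.12, SE; adjusted p = 0.0202). Zeb2, a zinc finger gene, changed by -1.63 and -1.95 on its 2 called probes, and Zfpm2, a cofactor gene of GATA factors, by -1.77 and -1.81 on both of its probes. Etv1, an ETS factor gene, read 3.22, 2.02 and 1.94 in control and 1.86, 0.39 and 0.10 in null pools (-1.61 ± 0.15, SE; adjusted p = 0.0334). Its relative Etv4 rose, as described above. Tendon regulators went both ways, with Scx at 1.68 ± 0.19 and Mkx at -1.59 ± 0.17 (SE; adjusted p = 0.0452 and 0.0427). Eya2, a transcriptional cofactor gene, rose by 2.16 ± 0.20 (SE; adjusted p = 0.0355).

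Some genes known from nerve and membrane signalling also fell, and others rose. Ednrb, an endothelin receptor gene, fell on both probes, with changes of -2.02 and -2.75. Kcnk2, a potassium channel gene, changed by -2.02 ± 0.15, Pcdh8, a protocadherin gene, by -2.11 ± 0.13, and Gad2, which encodes an enzyme of GABA synthesis, by -1.86 ± 0.20 (SE; adjusted p = 0.028, 0.0202 and 0.0437). Pcdh8 read 1.01, 1.51 and 1.79 in control and -0.99, -0.60 and -0.44 in null pools, with no overlap. Asb4, which encodes a substrate receptor of ubiquitin ligases, read 4.13, 3.11 and 3.87 in control and 2.16, 1.26 and 2.07 in null pools (-1.87 ± 0.12, SE; adjusted p = 0.0238). Among rises, the guidance gene Slit1 changed by 2.07 ± 0.21 and the cannabinoid receptor gene Cnr1 by 1.80 ± 0.16 (SE; adjusted p = 0.0406 and 0.031). For the growth factor gene Igf1 1 of 5 tested probes was called.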
